A study of Mus musculus with 2 samples.

Results

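The 9 genes described here encode receptors through which leukocytes sense chemoattractants: the chemokine receptors Ccr1, Ccr2, Ccr3, Ccr7, Cx3cr1 and Cxcr4, the atypical chemokine receptor Ccrl2, and the formyl peptide receptors Fpr1 and Fpr2. They were chosen by gene symbol, and all 9 were found among the 55536 annotated genes of the deposited tables. The cells were macrophages grown from C57BL/6J mouse bone marrow and given lipid A (100 ng/ml) for 75 minutes; lipid A is the membrane anchor of lipopolysaccharide and the ligand of Toll-like receptor 4. Total RNA of their cytosol was sequenced after ribosomal RNA had been removed. The design holds 1 group of 2 libraries, numbered as biological replicates, from 1 µg of RNA each, and both carry the same donor identifier. Over all genes, replicate 1 had 55596625 expected counts and replicate 2 had 50157146. Sex and age were not recorded, and no genetic change is named. The labels do not say whether the libraries came from separate animals or cultures, so an SD given here may be technical in part. With 1 group there is no contrast and no p-value, so the values give levels after lipid A and how far the libraries lay apart, and no effect of lipid A.

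Chemokine and formyl peptide receptors are proteins that cross the cell membrane 7 times and, once a ligand binds, activate heterotrimeric G proteins of the Gi class, which steer the cell along the ligand's gradient. Their response is ended by receptor kinases and arrestins, and by RGS proteins, which switch the G protein off. Ccrl2 is the exception among the 9: it is known to bind the chemoattractant chemerin without starting G protein signalling and to present it to the signalling receptor Cmklr1 on neighbouring cells. Formyl peptide receptors recognise peptides that begin with formylmethionine, which bacteria and mitochondria make.

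The difference between Ccrl2 and the signalling receptors can be read in the coding sequence at the end of the third transmembrane helix, where signalling chemokine receptors carry the aspartate-arginine-tyrosine motif that takes part in G protein coupling. The 9 stretches below come from the GENCODE M21 coding sequences, 5′ to 3′, with the 7 codons aligned to the motif and its extension in Ccr1 in capitals. They are shown because they separate the 9 genes into 3 kinds.
Ccr1: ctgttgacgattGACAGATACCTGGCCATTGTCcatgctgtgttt
Ccr2: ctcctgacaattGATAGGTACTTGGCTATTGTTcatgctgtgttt
Ccr3: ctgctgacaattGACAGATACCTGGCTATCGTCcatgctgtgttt
Ccr7: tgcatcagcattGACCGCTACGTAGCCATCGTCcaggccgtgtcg
Cx3cr1: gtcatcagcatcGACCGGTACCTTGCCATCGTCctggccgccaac
Cxcr4: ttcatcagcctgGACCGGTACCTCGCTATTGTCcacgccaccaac
Fpr1: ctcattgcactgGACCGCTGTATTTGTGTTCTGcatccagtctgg
Fpr2: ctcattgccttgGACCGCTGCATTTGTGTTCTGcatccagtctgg
Ccrl2: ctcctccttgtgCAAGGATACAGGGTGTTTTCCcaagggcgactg
Ccr2, Ccr3, Cx3cr1 and Cxcr4 encode the same 7 residues as Ccr1 there, and Ccr7 encodes 6 of the 7. Fpr1 and Fpr2 begin with aspartate, arginine and cysteine and share 2 of the 7 residues with Ccr1. Ccrl2 begins with glutamine, glycine and tyrosine and shares 1 of the 7. Over the whole translated coding sequences, Fpr1 and Fpr2 were the most alike pair (62.3% identical residues), followed by Ccr1 and Ccr3 (61.6%), Ccr2 and Ccr3 (56.4%) and Ccr1 and Ccr2 (54.9%). Ccrl2 was between 23.5% identical to Fpr1 and 35.4% identical to Ccr1.

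The receptor RNA in the cytosol was mostly that of Ccrl2. Levels are in TPM (a read count divided by transcript length and scaled so that each table has the same sum), as mean ± SD over n = 2, and unless another is named they come from the first deposited quantification, made from alignments to the transcriptome. The 9 genes summed to 233.83 and 204.88 TPM in replicates 1 and 2, of which Ccrl2 made up 80.8% and 73.1%. The other 8 genes together had 44.97 and 55.09 TPM. At a mean of 1 TPM or more, 6 of the 9 genes were detected, while 39.3% of the 22028 protein-coding genes were. The 6 were Ccrl2, Ccr1, Cxcr4, Ccr3, Ccr2 and Ccr7, and the 3 below were Fpr2, Fpr1 and Cx3cr1. In these bulk samples, fewer cells with a receptor and less of its RNA per cell cannot be told apart.

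**Figure D1:**
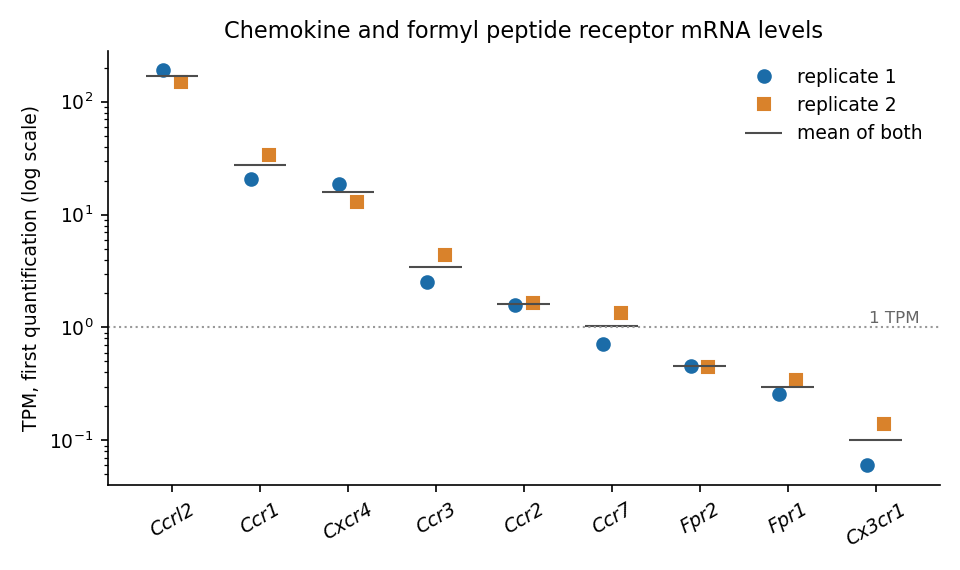
TPM of the 9 receptor genes in the first quantification, on a log axis, with replicate 1 as circles, replicate 2 as squares and the mean as a bar; the dotted line marks 1 TPM. Ccrl2 lies at 188.86 and 149.79 TPM, Ccr1 and Cxcr4 between 13.03 and 33.79 TPM, and Cx3cr1 lowest at 0.06 and 0.14 TPM.

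Ccrl2 (ENSMUSG00000043953.12; mm10 chromosome 9, 111054486 to 111057519, minus strand) had 188.86 TPM in replicate 1 and 149.79 TPM in replicate 2, or 169 ± 27.6 TPM, from 33542 and 22600 expected counts. That placed it at rank 197 among the 22028 protein-coding genes by mean TPM. Its level was 9.08 times that of Ccr1, the next receptor, in replicate 1 and 4.43 times in replicate 2.

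Of the receptors for inflammatory CC chemokines, Ccr1 was the highest. Ccr1 (ENSMUSG00000025804.5; chromosome 9, 123962124 to 123968692, minus strand) binds Ccl3, Ccl5, Ccl7 and Ccl9 among others. It had 20.81 and 33.79 TPM in replicates 1 and 2 (27.3 ± 9.18 TPM), from 6313 and 8625 counts, at rank 1218. Ccr3 (ENSMUSG00000035448.9; chromosome 9, 124021972 to 124031689, plus strand), the eotaxin receptor known above all from eosinophils, had 2.53 and 4.36 TPM (3.45 ± 1.29 TPM), from 896 and 1300 counts. Ccr2 (ENSMUSG00000049103.14; chromosome 9, 124101950 to 124113557, plus strand), the Ccl2 receptor that lets monocytes leave the marrow, had 1.59 and 1.64 TPM (1.62 ± 0.035 TPM), from 609.82 and 546.47 counts. The libraries of these 3 genes did not overlap: Ccr1 stood above Ccr3, and Ccr3 above Ccr2, in each. Ccr3 was 1.59 and 2.66 times as high as Ccr2.

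The receptors that guide cells to marrow and lymph nodes lay apart from each other. Cxcr4 (ENSMUSG00000045382.6; chromosome 1, 128588199 to 128592293, minus strand), the Cxcl12 receptor that holds leukocytes in the marrow, had 18.55 TPM in replicate 1 and 13.03 TPM in replicate 2 (15.8 ± 3.90 TPM), from 3156 and 1860 counts. Ccr7 (ENSMUSG00000037944.8; chromosome 11, 99144196 to 99155077, minus strand), which brings dendritic cells to lymph nodes along Ccl19 and Ccl21, had 0.71 and 1.34 TPM (1.02 ± 0.445 TPM), from 145 and 230 counts. Ccr7 was thus below the threshold of 1 TPM in replicate 1 and above it in replicate 2, and 5 of the 9 genes reached it in replicate 1. Cx3cr1 (ENSMUSG00000052336.7; chromosome 9, 119901616 to 120069879, minus strand), the fractalkine receptor of patrolling monocytes and many tissue macrophages, had 0.06 and 0.14 TPM (0.10 ± 0.057 TPM), from 26 and 47 counts. It was the lowest of the 9 in each library. Its annotated span overlaps other genes, among them Gm33858 on the opposite strand, and no source used here gives the strand of counting.

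Both formyl peptide receptors were below 1 TPM. Fpr2 (ENSMUSG00000052270.7; chromosome 17, 17887824 to 17893952, plus strand), which also binds annexin A1 and serum amyloid A, had 0.46 and 0.45 TPM (0.46 ± 0.0071 TPM), from 42 and 36 counts. Fpr1 (ENSMUSG00000045551.7; chromosome 17, 17876471 to 17883940, minus strand), the high-affinity receptor for formyl peptides, had 0.26 and 0.34 TPM (0.30 ± 0.057 TPM), from 33 and 37 counts. Fpr2 was 1.77 and 1.32 times as high as Fpr1. The authors' deposited intervals of TPM, whose level is not stated, ran from 0.337 to 0.625 for Fpr2 and from 0.176 to 0.351 for Fpr1 in replicate 1. In replicate 2 they ran from 0.317 to 0.618 and from 0.242 to 0.461. The intervals overlapped in both libraries, so the order of this pair rests on few reads. Fpr2 also shares the most sequence with other genes. Of the 31-base words in its transcripts, 43% occur in transcripts of other genes, 37.6% in the pseudogene Gm5966 and 13.5% in Fpr3. For the other 8 genes this share was between 0 for Ccr7 and 3.48% for Ccr2. Gm5966 and Fpr3 had 0 TPM in both libraries. The authors' deposited posterior SD of the gene count was 0 and 0.43 for Fpr2 in replicates 1 and 2, against 0.72 and 1.62 for Ccr2. The level of Fpr2 is still given as uncertain, because of the shared sequence and the few reads.

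From highest to lowest the order was Ccrl2, Ccr1, Cxcr4, Ccr3, Ccr2, Ccr7, Fpr2, Fpr1 and Cx3cr1 in both libraries. No library of one gene overlapped those of its neighbour in this order. The closest pair within a library was Ccr1 and Cxcr4 in replicate 1, where Ccr1 was 1.12 times as high, against 2.59 times in replicate 2. In the second quantification, made directly from the reads, this pair changed places in replicate 1, with Ccr1 at 10.19 and Cxcr4 at 10.40 TPM, and was 12.68 and 5.51 TPM in replicate 2. Their libraries then overlapped, and the order of Ccr1 and Cxcr4 is not settled by these data. The 7 other pairs of neighbours did not overlap there either. TPM of mRNAs were lower in the second quantification, in which nuclear-encoded protein-coding genes held 11.1% and 8.60% of all TPM, against 21.6% and 21.9% in the first. Ccrl2 there had 105.8 and 62.7 TPM and made up 81.8% and 74.4% of the 9 genes' sum.

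The replicates differed in opposite directions for different receptors. Here the quantity is the ratio of the scaled count in replicate 2 to that in replicate 1, with a 95% Clopper-Pearson interval that covers counting error only. A single gene of the 9 was over 2-fold apart, Cx3cr1, while 6.94% of the 13392 genes averaging at least 10 counts were. Ccr1 (ratio 1.56, interval 1.51 to 1.62), Ccr3 (1.66, 1.52 to 1.81), Ccr7 (1.81, 1.47 to 2.25) and Cx3cr1 (2.05, 1.26 to 3.48) were higher in replicate 2 beyond counting error. Ccrl2 (0.771, 0.758 to 0.784) and Cxcr4 (0.675, 0.637 to 0.715) were higher in replicate 1. The share of all genes beyond counting error was not computed, and the interval narrows as counts rise. The intervals of Ccr2 (1.03, 0.911 to 1.15), Fpr1 (1.28, 0.781 to 2.12) and Fpr2 (0.981, 0.611 to 1.57) contained 1, and those of the formyl peptide receptors are wide enough to hold a difference of over 1.5-fold. Over the 13392 genes the median ratio was 0.997 and the 5th to 95th percentiles ran from 0.714 to 2.27. Cxcr4 lay below that range and the 8 others within it. Over the 10091 genes averaging at least 100 counts the percentiles were narrower, 0.770 to 1.41. Of the 6 receptors with such counts, Ccr1, Ccr3 and Ccr7 lay above that range, Cxcr4 below it, and Ccrl2, at its lower edge, and Ccr2 within it.

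**Figure D2:**
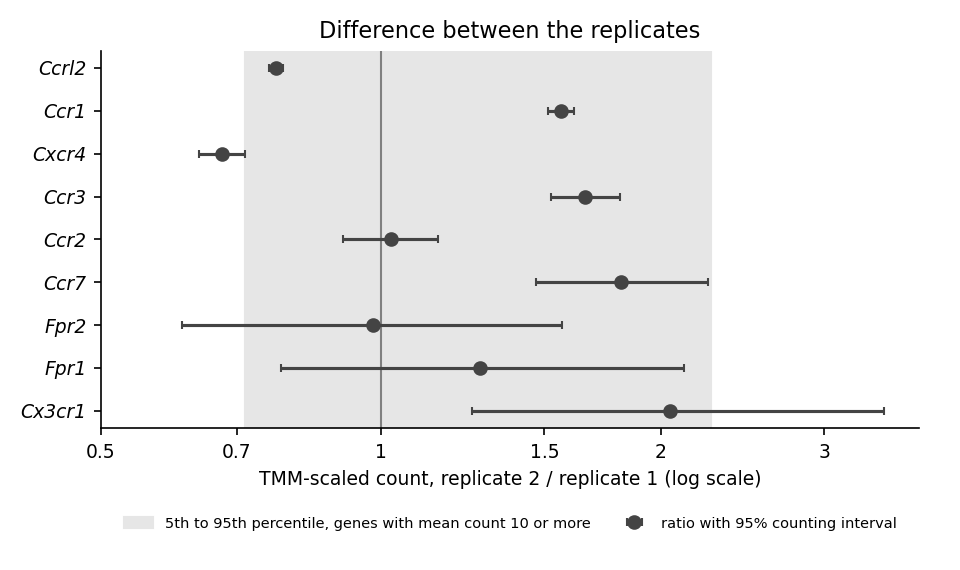
Ratio of the TMM-scaled count in replicate 2 to that in replicate 1 for each receptor gene, on a log axis, with 95% counting intervals; the grey band is the 5th to 95th percentile of all genes averaging at least 10 counts. Ccr1, Ccr3, Ccr7 and Cx3cr1 lie right of 1, Ccrl2 and Cxcr4 left of it, and the intervals of Ccr2, Fpr1 and Fpr2 cross it.

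Other genes also differed between the replicates. RNAs known to stay in the nucleus were higher in replicate 2: Malat1 had 158.1 and 799.18 TPM (ratio 4.68), and Neat1 14.82 and 64.61 TPM (ratio 4.06). Of the 13392 genes averaging at least 10 counts, 6598 had a ratio above 1. The 8 macrophage markers had a median ratio of 1.33, with 7 of the 8 above 1, and their summed level was 5523.79 and 5851.77 TPM. The 8 dendritic cell markers had a median ratio of 1.43, with 6 of 8 above 1. Of the 10 neutrophil markers 5 averaged at least 10 counts, with a median ratio of 1.92 and 3 of 5 above 1. The most abundant, S100a9 (0.986) and S100a8 (0.876), were below 1, and Ngp was at 1.92. Ltf (2.72) and Mpo (3.15, from 20 and 56 counts), chosen after their values were seen, were over 2-fold higher in replicate 2. The 6 monocyte markers had a median ratio of 0.930, with 2 of 6 above 1. The 12 measured ligands of the receptors had a median ratio of 0.781, with 3 of 12 above 1. The part of nuclear RNA and of the cells' make-up in the receptors' ratios was not tested.

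Ccrl2 RNA was divided among 3 annotated transcripts that begin at different places. The form Ccrl2-203 (exon 1 from 111057381 to 111057519) had 127.96 and 108.19 TPM, or 67.8% and 72.2% of the gene. Ccrl2-201, whose exon 1 runs from 111056766 to 111057270, had 30.37 and 20.61 TPM (16.1% and 13.8%). Both carry the same 1080 coding bases in their last exon, and they differ in the 5′ and 3′ untranslated parts. Ccrl2-202 is annotated with an incomplete 3′ end and 399 coding bases on 569 bases in all, and had 30.54 and 21 TPM (16.2% and 14.0%). Since TPM divides by length, its share of counts was only 3.68% and 3.17%. In the second quantification Ccrl2-203 led again, with 57.4% and 63.1% of the gene, and Ccrl2-202 held 29.1% and 24.7%.

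**Figure D3:**
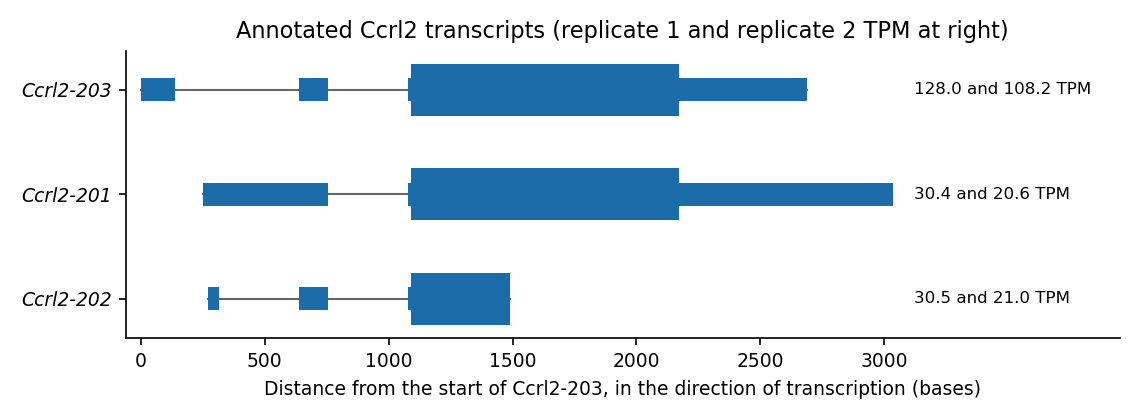
The 3 annotated Ccrl2 transcripts drawn to scale as distance in bases from the start of Ccrl2-203, with coding parts as tall boxes, untranslated exon parts as low boxes and introns as lines. Ccrl2-203 and Ccrl2-201 share the whole coding part, Ccrl2-202 holds the beginning of it, and the TPM of each transcript in replicates 1 and 2 stand at the right.

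The 150 bases before the start of the leading Ccrl2 form hold 2 matches to a pattern of NF-kB, the transcription factor activated downstream of Toll-like receptor 4. They are printed from RefSeq's GRCm38.p6 promoters (chr9:111057519-111057668, minus strand, 5′ to 3′), with the matches in capitals.
Ccrl2 promoter: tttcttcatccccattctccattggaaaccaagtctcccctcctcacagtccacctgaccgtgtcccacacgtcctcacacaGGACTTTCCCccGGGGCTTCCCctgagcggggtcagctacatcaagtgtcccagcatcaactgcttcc
The matches begin 68 and 56 bases before the annotated start. The pattern searched was GGGANNNNCC on both strands, in windows from 250 bases before to 50 bases after each start. RefSeq gave 10 windows for 8 of the 9 genes, 3 of them for Ccrl2, and none for Ccr7. The NF-kB pattern was in 3 of the 10 windows, those of Ccr1, Ccr3 and the Ccrl2-203 start, and in 20.7% of all 32851 promoters of the same length. The PU.1 pattern GAGGAA, of the factor that defines the myeloid lineage, was in 3 of 10 (Ccr1, Ccr3 and Fpr2), against 28.3% of all promoters. The AP-1 pattern TGANTCA was in 1 of 10 (Ccr3), against 7.81%, and the C/EBP pattern TTGCNNCAA in 0 of 10, against 2.08%. The NF-kB and PU.1 matches of Ccr3 overlap each other. These matches describe letters only, and no binding was measured.

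Of the 9 genes, 4 have 1 annotated transcript (Ccr1, Ccr3, Ccr7 and Fpr1) and 5 have several. In 5 genes the leading transcript held over 90% of the level: Cx3cr1 and the 4 just named, whose share is fixed by having 1 transcript. The same share over all genes was not computed. All Cx3cr1 counts were assigned to Cx3cr1-201, and its other transcripts had 0. The deposited posterior SD of the count was 4.61 and 4.88 for Cx3cr1-201, on 26 and 47 counts. For Cx3cr1-202 it was 2.84 and 3.33 and for Cx3cr1-203 3.52 and 3.61, so the split among these forms is uncertain.

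Cxcr4 RNA was mostly of the longer coding form. Cxcr4-201 had 16.11 and 11.24 TPM, or 86.8% and 86.3% of the gene, and Cxcr4-202, annotated with an incomplete end, 2.44 and 1.79 TPM. The coding parts of their first exons hold 21 and 15 bases. The beginnings of both coding sequences are shown because they differ at the N terminus, which takes part in binding Cxcl12. The 6 bases found only in the longer form are in capitals.
Cxcr4-201: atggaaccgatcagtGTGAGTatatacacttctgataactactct
Cxcr4-202: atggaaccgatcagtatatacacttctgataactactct
By counts Cxcr4-201 held 93.9% and 93.6% of the gene, and in the second quantification 79.9% and 80.3% of TPM.

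Ccr2 and Fpr2 had no form above 90%. Ccr2 has 4 annotated transcripts with the same 1119 coding bases. The single-exon form Ccr2-202 (124105626 to 124109140) led with 1.03 and 1.15 TPM (64.8% and 70.1%), followed by Ccr2-201 with 0.31 and 0.18 TPM. In the second quantification their shares were 49.7% and 52.2% for Ccr2-202 and 35.1% and 24.7% for Ccr2-201. The deposited posterior SD of the count was 25.39 on 395.93 counts for Ccr2-202 and 25.95 on 101.18 counts for Ccr2-201 in replicate 1, so the smaller form is the less certain.

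For Fpr2 the forms matter because 1 of them cannot encode the whole receptor. Fpr2-201 carries all 1053 coding bases, and Fpr2-202 skips 413 bases after the 90th coding base and is annotated with 144. The sequences on either side of the junction are printed, with the bases after it in capitals.
Fpr2-201: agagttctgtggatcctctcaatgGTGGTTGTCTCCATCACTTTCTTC
Fpr2-202: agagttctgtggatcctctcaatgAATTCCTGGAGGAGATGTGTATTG
Fpr2-201 had 0.22 and 0.29 TPM, from 23.78 and 26.01 counts, and Fpr2-202 had 0.24 and 0.15 TPM, from 18.22 and 9.99 counts. The leading form thus changed between the libraries, from Fpr2-202 with 52.2% in replicate 1 to Fpr2-201 with 65.9% in replicate 2. At this depth it could not be told which form led. In the second quantification Fpr2-202 led on average, so the leading transcript was the same in both quantifications for 8 of the 9 genes.

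**Figure D4:**
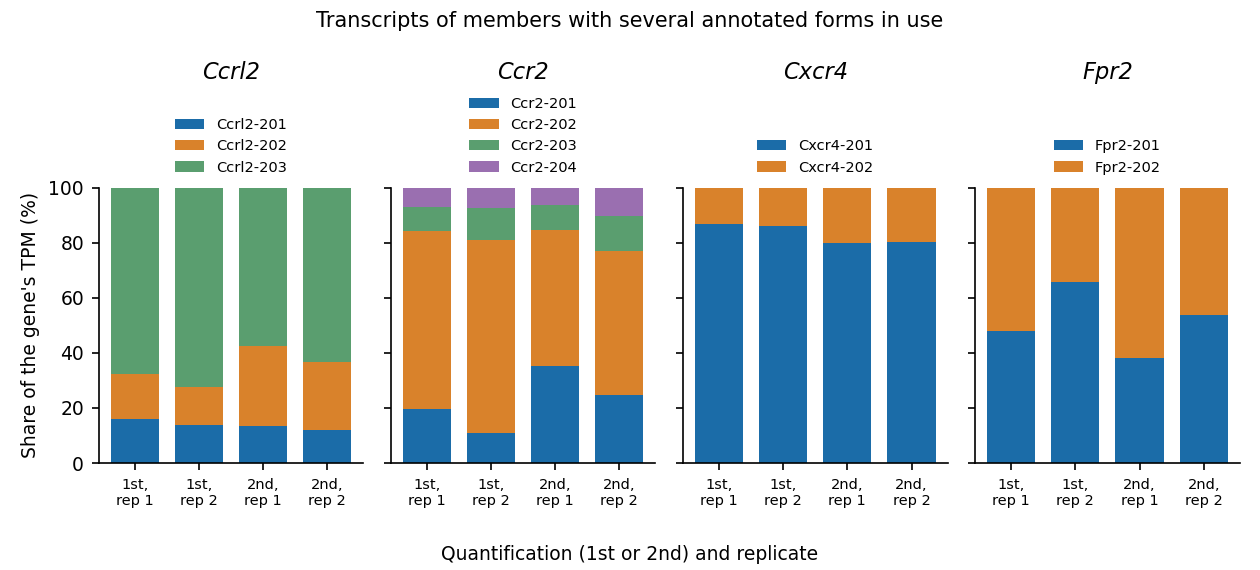
Share of each gene's TPM (%) in its annotated transcripts for Ccrl2, Ccr2, Cxcr4 and Fpr2, with 1 stacked bar per quantification (1st or 2nd) and replicate. Ccrl2-203, Ccr2-202 and Cxcr4-201 lead in all 4 bars of their genes, while for Fpr2 the leading form changes between the bars.

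On chromosome 9, where 5 of the 9 genes lie, Ccr1, Ccr3 and Ccr2 stand in a row with other chemokine receptor genes. In map order the levels were 0.03 and 0.09 TPM for Cxcr6, 0.49 and 0.36 TPM for Xcr1, 20.81 and 33.79 TPM for Ccr1, 0.12 and 0.15 TPM for Ccr1l1, 2.53 and 4.36 TPM for Ccr3, and 1.59 and 1.64 TPM for Ccr2. From Ccr1 to Ccr2 the row covers 151434 bases. Neighbours thus differed widely in level, with Ccr1l1 far below Ccr1 and Ccr3 on its sides. Fpr1 and Fpr2 on chromosome 17 point away from each other, with 3884 bases between their annotated starts.

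Among the other receptors of the family few were present. Of 17 other chemokine receptors listed, 2 reached 1 TPM: the chemerin receptor Cmklr1 (6.86 and 9.46 TPM) and Cxcr3 (1.08 and 1.33 TPM), which binds interferon-induced chemokines. Xcr1, which marks a class of dendritic cells and is also on the dendritic cell list, came next, and 4 of the 17 had 0 counts in both libraries. The 5 other formyl peptide receptor genes, Fpr3, Fpr-rs3, Fpr-rs4, Fpr-rs6 and Fpr-rs7, had 0 counts in both, which allows up to 3 counts in each library. The 9 genes described here made up 96.4% and 94.5% of the summed TPM of the 31 listed receptors. They were chosen with earlier results of these data known, and a receptor not reported here is outside that sum.

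Several CC chemokines that these receptors bind had higher levels than any listed receptor. Of 18 listed ligands 10 reached 1 TPM. The highest were Ccl4 (1393 and 1059 TPM), Ccl3 (1343 and 891 TPM), Ccl2 (820 and 671 TPM) and Ccl7 (702 and 557 TPM). Ccl3 binds Ccr1, and Ccl2 and Ccl7 bind Ccr2. The ligands named next were chosen after their values were seen. The eotaxin Ccl11 had 0 and 0.01 TPM, the Cxcr4 ligand Cxcl12 0.01 and 0.02 TPM, the Cx3cr1 ligand Cx3cl1 0.15 and 0.14 TPM, and the Ccr7 ligands Ccl19 and Ccl21a 0 counts in both libraries. The chemerin gene Rarres2 had 0.01 TPM in each. The eotaxin Ccl24, a ligand of Ccr3, lay close to the threshold at 1.02 and 0.79 TPM. Of the Fpr2 ligands, Anxa1 had 143.94 and 139.5 TPM, Saa3 9.73 and 22.97 TPM, and Camp 0.13 and 0.21 TPM.

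**Figure D5:**
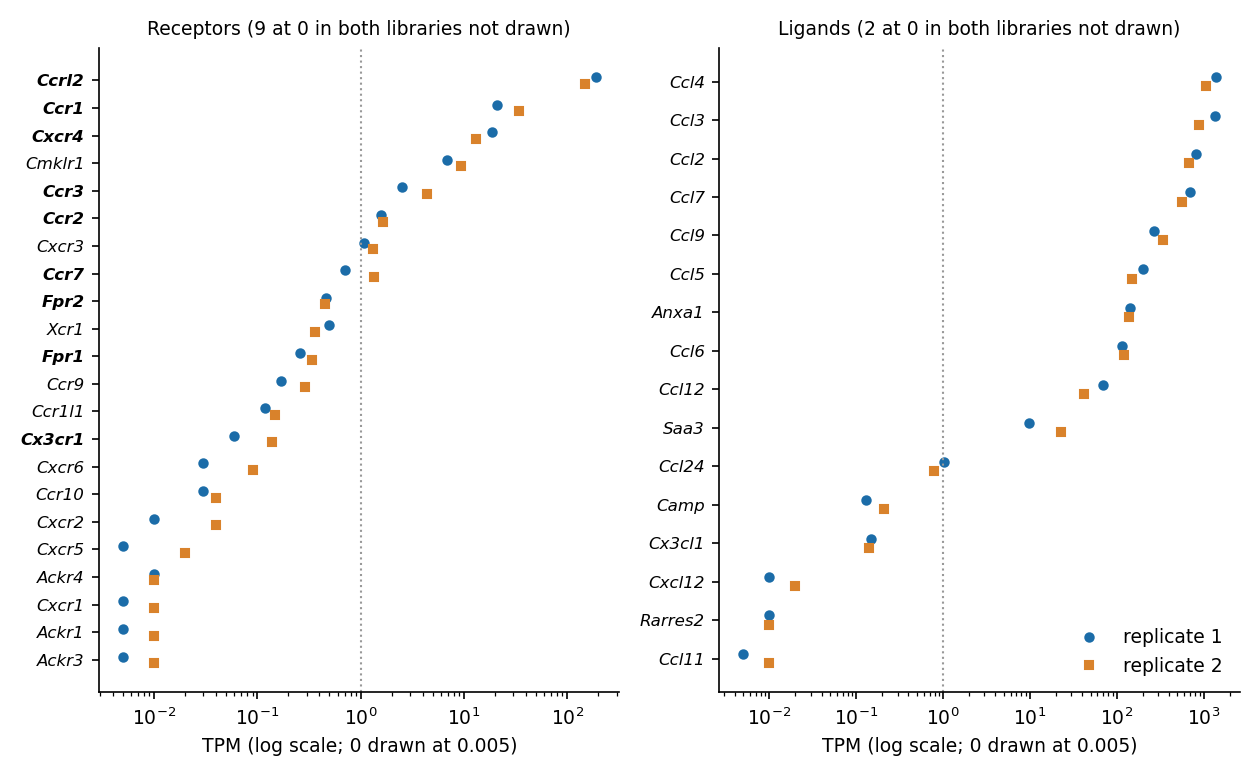
TPM of listed chemokine and formyl peptide receptors (left, with the 9 genes described here in bold) and of their ligands (right) in replicate 1 (circles) and replicate 2 (squares), on log axes with 0 drawn at 0.005 TPM and a dotted line at 1 TPM. Apart from Cmklr1 and Cxcr3 no listed receptor outside the 9 genes reached a mean of 1 TPM, and Ccl4, Ccl3, Ccl2 and Ccl7 lie at 557 TPM or more in both libraries.

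The machinery that carries and ends the receptors' signal was present. All 15 listed signalling genes reached 1 TPM, led by the G protein subunit genes Gnai2 (114.81 and 115.69 TPM), Gnb2 (67.91 and 72.78 TPM) and Gnb1 (58.25 and 60.25 TPM) and the small GTPase gene Rac1 (90.64 and 88.96 TPM). Of 12 genes that end signalling 8 did. Rgs1, an RGS protein gene of activated leukocytes, had 357.8 and 252.89 TPM, above every receptor gene listed. The arrestin gene Arrb2 had 40.27 and 38.84 TPM, the receptor kinase gene Grk2 25.81 and 26.22 TPM, and Rgs2 25.55 and 12.53 TPM. Grk5, Rgs14, Grk3 and Rgs16 stayed below 1 TPM, with Rgs16 lowest at 0.07 and 0.08 TPM.

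The labelled cell type was checked with its markers. All 8 macrophage markers reached 1 TPM, led by Lyz2, Cd68, Mpeg1 and Csf1r. Ccr3 is known from eosinophils, and none of 6 eosinophil markers reached 1 TPM: they summed to 0.06 and 0.24 TPM. The highest were Siglecf with 17 and 22 counts, Prg2 with 0 and 5, Alox15 with 1 and 4, and Epx with 0 and 2, and Ear6, named because it was at 0, had no counts. Ccr7 is known from dendritic cells, of whose 8 markers 2 reached 1 TPM, Ccl22 (3.49 and 3.04 TPM) and Itgax (0.89 and 1.20 TPM), which macrophages also express. Those 8 summed to 5.40 and 5.53 TPM. The 6 others lay between 0.04 and 0.49 TPM in replicate 1 and between 0.08 and 0.40 TPM in replicate 2, below Ccr7 in each library. Ccr2 is known from monocytes, of whose 6 markers 5 reached 1 TPM, among them F13a1, Ms4a4c, Plac8 and Chil3, with a sum of 26.76 and 24.52 TPM. Fpr1 and Fpr2 are known from neutrophils, of whose 10 markers 3 did, S100a9, S100a8 and Ngp, with a sum of 29.54 and 31.2 TPM and Ly6g at 0. T and B cell markers summed to 0.01 and 0.12 TPM. The part of eosinophils, monocytes, neutrophils and dendritic cells in the levels of Ccr3, Ccr2, Fpr1, Fpr2 and Ccr7 was not tested.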

How the data were processed

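Both libraries of the single group were used. The readme files name genome build mm10 and annotation M21 for all tables. No source used here gives the aligner, the quantifiers, a version or the strand of counting. In the first quantification, expected counts were estimated by the authors from alignments to the transcriptome, for genes and transcripts, and deposited without normalization, per the file headers. The estimated counts of the second were made by the authors directly from reads, per the readme files, and summed here per gene; 86 genes had no value. TPM of both were deposited by the authors, scaled to the same sum over each table, per the file headers. The deposited posterior SDs and TPM interval bounds were read as given.

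Genes held 55596625 and 50157146 expected counts in replicates 1 and 2, and 65933328 and 62889522 in the second quantification. Counts were rounded to whole numbers only for scaling, by TMM in edgeR 4.0.16 (R 4.3.3) or size factors in DESeq2 1.42.0. Ratios used scaled counts with 0.5 added and a mean count of 10 or more. Ccl19 and Ccl21a each name more than 1 gene, and the most abundant was taken. Coordinates came from GENCODE M21, promoters from RefSeq, and shared sequence from 31-base words on either strand. Python 3.11.15 with pandas 2.3.3, scipy 1.17.1, Biopython 1.88 and matplotlib 3.10.9 did the rest. The ratio calculation was run on simulated counts with counting error only and no variation between replicates. That checks the calculation and not the ratios of these data.

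The receptor genes and all gene lists were chosen with earlier results of these data known. Named are the 9 receptors, up to 4 genes of highest mean TPM in each list, list members below 1 TPM where 5 or fewer, and map neighbours. Outside this rule are the ligands so marked in the text, Malat1, Neat1 and the markers Ltf, Mpo, Ear6 and Ly6g, chosen after their values were seen. Alternatives were the second quantification, other thresholds, scalings and filters, and leaving out a replicate. A gene of the receptor list is not reported here. Intervals and floors cover counting error only.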

Additional observations from a re-analysis of the deposited data

How the results depend on the processing

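The number of receptor genes at 1 TPM or more was 6 and depended on the threshold and the scale: it was 3 at 5 TPM, 6 at 0.5 TPM, 4 in the second quantification and 8 on a TPM scale over nuclear-encoded protein-coding genes, where Cx3cr1 alone stayed below. That scale applied to the second quantification, an alternative chosen after seeing the data, gave 8. Leaving out a replicate gave 5 to 6. The share over all protein-coding genes, 39.3%, was computed only for a mean of 1 TPM in the first quantification. The counts under the other settings have no such share beside them. The number over 2-fold apart was 1 (Cx3cr1), and 0 with scaling by total count, where its ratio was 1.98; DESeq2 size factors, the second quantification, no minimum count and 1 count added each gave 1. Under these 5 alternatives the 6 ratios whose interval excluded 1 kept their direction; that of Ccr2 (1.03) was 0.993 with total counts and 0.998 in the second quantification. The second quantification moved 8 of 9 levels by more than the SD between replicates, and 3 of 9 ratios beyond their counting interval. The number with a leading transcript over 90% was 5, or 6 by share of counts, with Cxcr4 added, and 5 without either replicate. It includes the 4 genes with 1 annotated transcript, whose share is fixed. Depth limits Fpr1, Fpr2 and Cx3cr1, with at most 47 counts in a library. No paired analysis was possible because there is 1 group only.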
